A study of Mus musculus with 86 samples.

Results

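The 49 genes described here are nuclear genes for subunits of respiratory chain complexes I to IV, chosen by name from the mouse gene tables: 26 of complex I, 4 of complex II, 9 of complex III and 10 of complex IV. They are 49 of 31054 genes in the count tables and of 38277 genes in the FPKM tables, and all 49 were tested in each tissue of each experiment. RNA-seq libraries came from mouse kidney, liver and lung in a study of injury in mice and of MERTK, a cell surface receptor of macrophages that serves the clearance of dead cells. In the knockout experiment, kidneys were taken after unilateral ureteral obstruction (UUO) or sham surgery, and livers after bile duct ligation (BDL) or sham surgery, from mice labelled Mertk knockout and from wild-type mice, with 4 libraries in each of the 8 groups. In the inhibitor experiment all mice were labelled wild type and were injected with UNC569, a small-molecule inhibitor of MERTK, or with the solvent DMSO. Their FPKM tables hold 7 columns for UUO with UNC569 and 4 with DMSO, 4 for BDL with UNC569 and 6 with DMSO, 6 for each bleomycin lung group and 3 for each sham group. Ages, times after surgery and the kind of Mertk allele were not given in the sources used here, and animals or days shared between samples are not labelled, so p-values measure the spread between these libraries only.

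The respiratory chain of the inner mitochondrial membrane passes electrons from NADH through complex I, and from succinate through complex II, to ubiquinone, then through complex III and cytochrome c to complex IV, which hands them to oxygen. Complexes I, III and IV pump protons as they do so, and ATP synthase uses the resulting gradient; these complexes also hold subunits made inside the mitochondrion from its own genome, whereas complex II is built from nuclear genes alone. Tubule cells of the kidney cortex, hepatocytes and heart muscle are rich in mitochondria.

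Promoters are shown because the members moved together in obstructed kidney and because respiratory chain genes are known targets of the transcription factors NRF1 and GABP, the second of which binds ETS motifs. Of the 49 members, 39 matched a promoter in the RefSeq table (build GRCm38.p6). The 250 bases before the RefSeq start were searched on both strands for the NRF1 letters GCGCA, any base N, then GCGC, and for the ETS letters CCGGAA, spellings settled on after several had been counted. The NRF1 letters stood in 7 member promoters (17.9%, against 3.86% of 27025 promoters of the same length), the ETS letters in 13 (33.3%, against 12.2%), and both in 2, those of Sdhd and Cox6a1 (5.13%, against 0.988%). With GCATGCGC and CCGGAAG in their place the counts were 4 (10.3%, against 2.32%) and 7 (17.9%, against 7.05%). The comparison promoters were not matched to the members in base content or expression, so these shares are a description and no test of enrichment. In the GENCODE vM21 annotation of that build many of these genes begin further upstream, so that 28 of the 39 stretches reached into the annotated gene and 4 lay wholly inside it. Of members described throughout, Sdha held 3 NRF1 matches, of which 1 lay between annotated genes, 1 in an exon of the neighbour Ccdc127 and 1 in an exon of Sdha itself. Ndufv1, Ndufs7 and Uqcrfs1 held 1 ETS match each, that of Ndufv1 ahead of the annotated gene and those of Ndufs7 and Uqcrfs1 in exons of these genes. Printed below are the stretches free of annotated exons that hold a match, chr19:4012807-4013005 for Ndufv1 and chr13:74350281-74350308 for Sdha, both on the minus strand, with the motif in capitals.
Ndufv1: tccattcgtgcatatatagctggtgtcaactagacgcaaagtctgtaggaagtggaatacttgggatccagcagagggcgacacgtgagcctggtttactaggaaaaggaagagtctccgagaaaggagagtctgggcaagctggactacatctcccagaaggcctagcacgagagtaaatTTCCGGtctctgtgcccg
Sdha: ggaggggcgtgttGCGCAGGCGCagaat
A match to these letters describes the sequence and says nothing about binding. By complex, the NRF1 letters were found in 4 of 23 promoters of complex I, 2 of 3 of complex II, 0 of 5 of complex III and 1 of 8 of complex IV, and the ETS letters in 6, 1, 3 and 3 of the same promoters.

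Kidney libraries sham WT 1 and UUO WT 1 were left out, which leaves 3 wild-type libraries per kidney group. Of those kept, sham WT 3 had 58.5% unmapped reads, and its summed level of 10 fibroblast markers was 6960 CPM, against 334 and 436 CPM in sham WT 2 and 4. UUO WT 3 had the lowest such sum of the obstructed kidneys, 1760 CPM, where the others had 5700 to 14200 CPM. In ligated livers under the knockout label 9 cholangiocyte markers summed to 70.7, 440, 229 and 95.2 CPM, and the first and last lay within the range of the sham livers, 53.4 to 124 CPM. Mertk itself did not separate the labels in kidney, at 40.4 to 57.6 CPM in UUO knockout and 47.2 to 59.2 CPM in UUO wild-type libraries, nor in sham liver, at 10.8 to 20.5 CPM under the knockout label and 10.5 to 18.1 CPM in wild type. In ligated liver the ranges did not overlap, with 6.95 to 18.8 CPM under the knockout label and 21.3 to 28.4 CPM in wild type. Groups are named here by their labels. Reads in genes ranged from 7216322 to 28451863 per kidney library and from 14500094 to 23352846 per liver library, and the depth behind the FPKM values is unknown.

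In obstructed kidneys under the knockout label, 48 of the 49 subunits fell against sham kidneys of the same label (edgeR, adjusted p under 0.05), and for each of these 48 every UUO library lay below every sham library. Over all 16395 genes tested, 24.4% were lower and 34.7% higher. The members' median log2 fold change was -2.20 (range -3.90 to -0.07), against 0.23 over all genes. By complex the medians were -2.12 for complex I (25 of 26 lower), -2.32 for complex II (4 of 4), -2.52 for complex III (9 of 9) and -2.18 for complex IV (10 of 10). Within complex I, the matrix arm that carries the redox centres had a median of -2.14 (13 of 13 lower) and the membrane arm one of -2.16 (11 of 12 lower). Because this is whole tissue, fewer mitochondria-rich cells and less RNA per cell cannot be told apart.

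Sdha, the flavoprotein of complex II that oxidises succinate, had the smallest p of the members. Its level was 289.8, 189, 181 and 184 CPM in UUO knockout libraries, against 1117, 1146, 1042 and 953 CPM in sham knockout libraries, a log2 fold change of -2.33 ± 0.19 (SE, adjusted p = 8.04e-07). UUO KO 1 was the highest of the obstructed libraries and still far below the lowest sham library. Sdhb, the iron-sulphur protein of complex II, had 67.8 to 123 CPM in UUO, against 488 to 523 CPM in sham knockout libraries (log2 -2.50 ± 0.25), and the membrane anchors Sdhc and Sdhd fell by 2.12 ± 0.22 and 2.30 ± 0.20 on the log2 scale.

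Among complex I subunits, Ndufs1, the largest iron-sulphur subunit, had 98.99, 72.6, 58.2 and 70.05 CPM in UUO knockout libraries, against 352, 340.2, 319 and 283 CPM in sham knockout libraries (log2 -2.11 ± 0.19, adjusted p = 1.54e-06). Ndufv1, which binds the flavin that oxidises NADH, fell by 2.38 ± 0.26 and Ndufs7, which carries the last iron-sulphur cluster before ubiquinone, by 2.07 ± 0.35. The largest change in complex I was that of Ndufs6, an accessory subunit of the matrix arm, at 14.7, 6.93, 7.12 and 10.9 CPM in UUO, against 104, 91.7, 109 and 135 CPM in sham libraries (log2 -3.47 ± 0.49, adjusted p = 4.08e-05). Ndufs4, an accessory subunit of the same arm, fell by 1.11 ± 0.19.

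Ndufb2, an accessory subunit of the membrane arm, was the 1 member that did not pass. It had 8.26, 7.94, 6.89 and 8.42 CPM in UUO and 5.82, 8.88, 9.66 and 8.68 CPM in sham knockout libraries (log2 -0.07 ± 0.25, adjusted p = 0.825), and the groups overlapped. Its exons overlap 3 other genes, among them Braf on the opposite strand, and the counts ignore strand, so its reads cannot be assigned with certainty. In all, exons of 15 members overlap another annotated gene, 13 of them a gene on the opposite strand, and Ndufs1 is one of these.

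In complex III, Uqcrfs1, the Rieske iron-sulphur protein, had 144, 105, 74.5 and 94.7 CPM in UUO knockout libraries, against 610.2, 626, 605 and 619.7 CPM in sham knockout libraries (log2 -2.56 ± 0.24, adjusted p = 1.67e-06). Cyc1, which carries haem c1, and the core protein Uqcrc1 fell by 2.71 ± 0.28 and 2.41 ± 0.29. Uqcr11, a small accessory subunit, had the largest change of the 49, with 17.2, 5.97, 6.34 and 10.8 CPM in UUO and 137, 138, 153 and 176 CPM in sham libraries (log2 -3.90 ± 0.62, adjusted p = 1.17e-04). The obstructed and sham libraries did not overlap for any of these genes, and Uqcrh, the hinge protein, had the smallest change of complex III at -1.68 ± 0.31.

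In complex IV the changes ran from -2.90 ± 0.47 for Cox5b, a matrix-side zinc-binding subunit, to -1.76 ± 0.30 for Cox7c, a small membrane subunit. Cox4i1, the common isoform of subunit 4, had 188, 114, 114 and 175 CPM in UUO knockout libraries, against 592, 632, 656 and 748 CPM in sham knockout libraries (log2 -2.15 ± 0.35, adjusted p = 1.39e-04), again without overlap. Cox5a, which binds on the matrix side, and the membrane subunit Cox6c fell by 2.15 ± 0.27 and 1.78 ± 0.27. Ndufa4, named as a complex I subunit but since assigned to complex IV, fell by 1.99 ± 0.25, and with it moved the medians were -2.14 for complex I and -2.15 for complex IV.

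**Figure D1:**
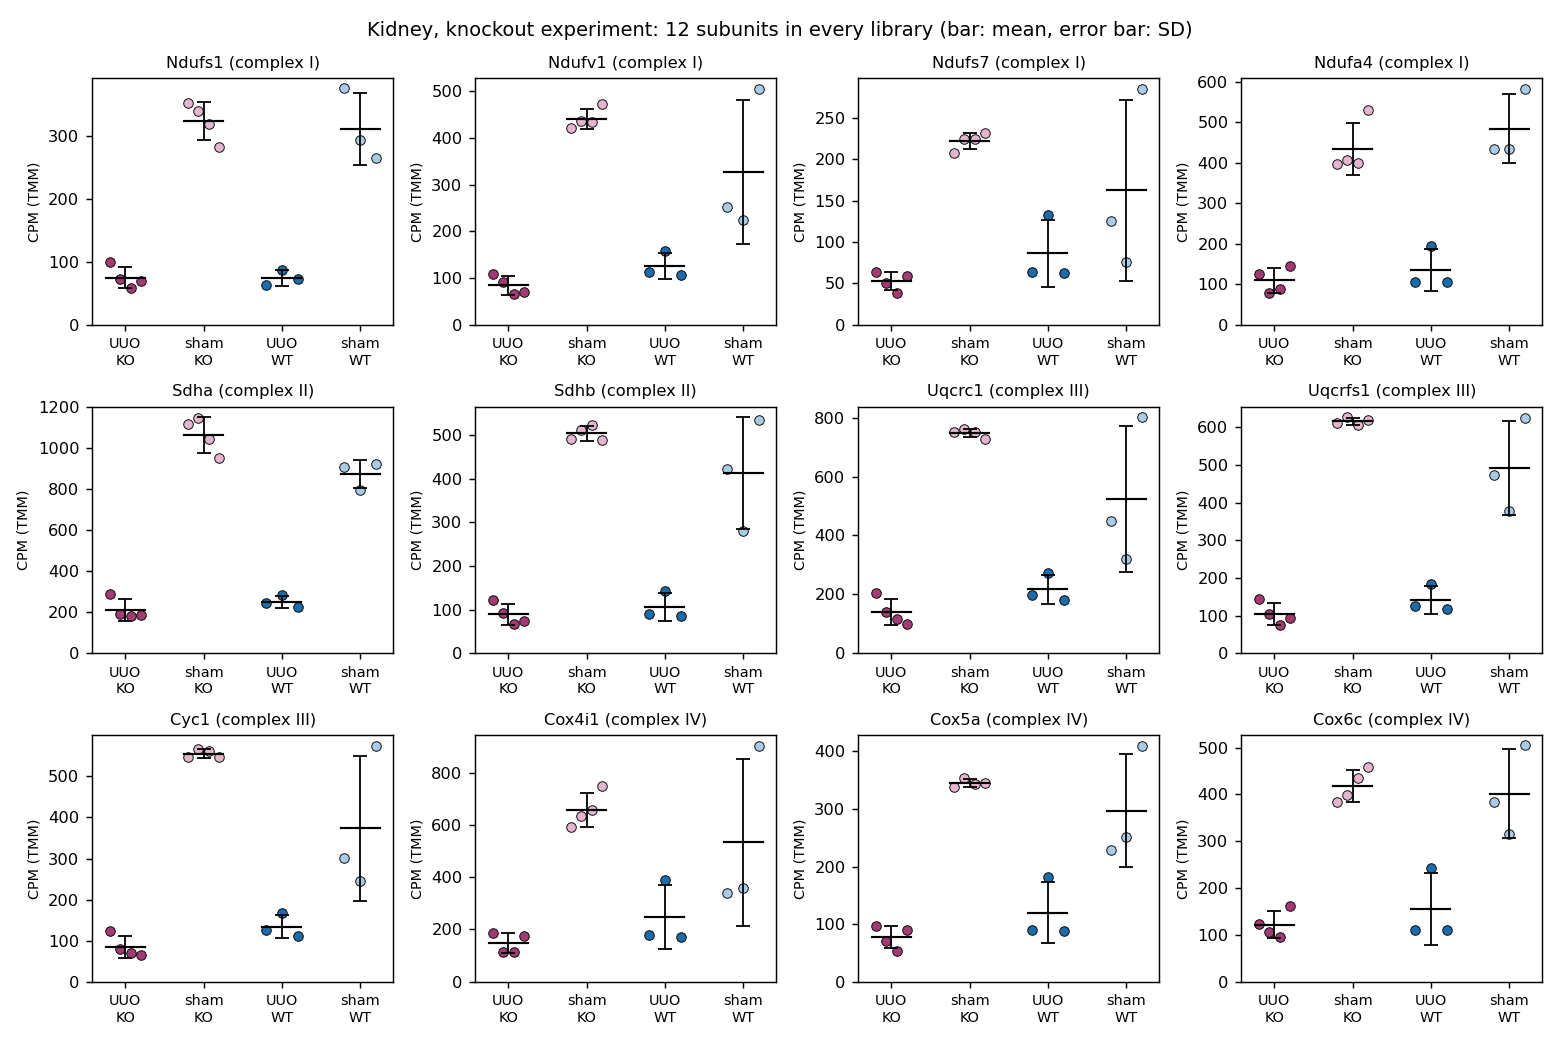
Level of 12 subunits in each kidney library of the knockout experiment, in TMM-normalised CPM. Points are libraries, the wide bar is the mean and the error bar the SD (4 libraries per knockout group, 3 per wild-type group). Every UUO KO point lies below every sham KO point, as for Sdha, where UUO KO reaches 289.8 CPM and sham KO starts at 953 CPM.

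In wild-type kidneys the same contrast called 39 of 49 subunits lower and 0 higher (16.0% of all genes lower, 23.3% higher), with a median log2 fold change of -1.37 (range -2.06 to -0.54), against 0.16 over all genes. Complex II fell with 4 of 4 members (median -1.64), complex III with 7 of 9 (-1.48), complex IV with 9 of 10 (-1.34) and complex I with 19 of 26 (-1.22). For 24 members all UUO libraries lay below all sham libraries, and the share of all genes that did so is not given here. Those not called were Ndufa2, Ndufa8, Ndufb2, Ndufb4, Ndufb7, Ndufb8, Ndufs7, Uqcrh, Uqcr10 and Cox5b, all with negative fold changes. Cox5b, for example, had 61.98, 115 and 56.2 CPM in UUO, against 69.8, 115 and 377 CPM in sham wild-type libraries (log2 -1.27 ± 0.51, adjusted p = 0.0621).

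Ndufs1 had 63.6, 87.4 and 72.1 CPM in UUO wild-type libraries, against 375, 293 and 265 CPM in sham wild-type libraries (log2 -2.07 ± 0.22, adjusted p = 1.65e-05). Sdha had 247, 283 and 224 CPM in UUO, against 907, 797 and 920.0 CPM in sham libraries (log2 -1.80 ± 0.22, adjusted p = 3.56e-05). For both genes the groups stood well apart. The next smallest p was that of Ndufb5, a membrane-arm subunit (log2 -1.64 ± 0.20, adjusted p = 4.11e-05), and Sdhb and Uqcrfs1 fell by 1.96 ± 0.29 and 1.79 ± 0.26.

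The wild-type sham libraries stood apart from each other. Sham WT 2 lay below the lowest sham KO library for 44 members and sham WT 3 for 43, whereas sham WT 4 lay above the highest sham KO library for 43. Uqcr11, for example, had 30.8, 40.2 and 265 CPM in the 3 wild-type sham libraries. Without sham WT 4 the wild-type contrast called 24 members (median -0.76), and without UUO WT 4 it called 24 (median -1.18). Leaving out sham WT 3 and UUO WT 3, whose fibroblast sums stood apart, gave 48 members lower and a median of -1.998, a choice made after seeing the data. With sham WT 1 and UUO WT 1 included the count was 30 (median -1.11). TMM factors, by which levels are scaled, were 0.81 to 0.86 in the sham kidneys kept and 1.15 to 1.23 in the UUO kidneys kept. The members made up 0.772%, 0.734% and 1.41% of the library total in sham WT 2, 3 and 4. In UUO WT 2, 3 and 4 they made up 0.435%, 0.734% and 0.418%. Under the knockout label the shares were 0.286% to 0.445% after UUO and 1.14% to 1.27% in sham. The part of the scaling was not tested.

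**Figure D2:**
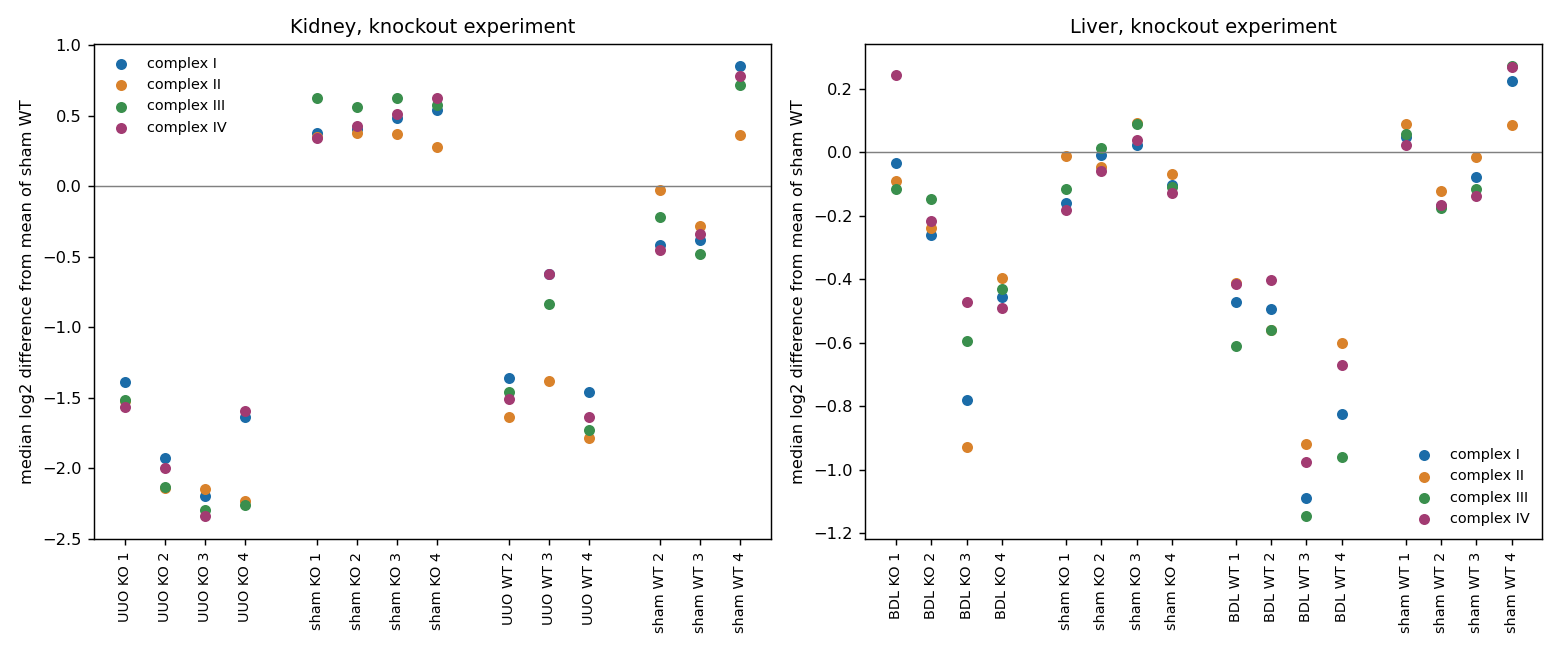
Median over the subunits of each complex of the log2 level in a library relative to the sham WT mean, for kidney and liver of the knockout experiment. Each column of points is a library and each colour a complex. UUO WT 3 has -1.38 for complex II and -0.62 for complex I, and over all 49 members sham WT 4 has 0.72, against -0.34 and -0.38 in sham WT 2 and 3.

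Between labels, 0 of 49 subunits passed in obstructed kidneys (0.0% of all genes), with a median log2 fold change, knockout label over wild type, of -0.58 and a smallest adjusted p of 0.43. In edgeR 17 members had an unadjusted p under 0.05, DESeq2 called 0, and for 8 members all UUO knockout libraries lay below all UUO wild-type libraries. The shares of all genes at that unadjusted p, or without overlap, are not given here, so the 17 and the 8 describe the members only. Uqcr11 again had the largest difference (log2 -1.69 ± 0.61, adjusted p = 0.43). The 22 members with a transcript under 800 bases had a median of -0.75, against -0.42 in the 16 of 1200 bases or more, and the part of length here and below was not tested. In sham kidneys 0 passed (0.0% of all genes lower, 0.0061% higher), the median was 0.32, 0 members had an unadjusted p under 0.05 in edgeR and DESeq2 called 0. The difference between the responses to UUO had a median of -0.87, 0 of 49 past the threshold in edgeR (0.0% of all genes), 23 with an unadjusted p under 0.05 and a smallest adjusted p of 0.102, for Cyc1 (-1.24 ± 0.41). DESeq2 called 1 member in that test. Without sham WT 4 edgeR called 26 members higher under the knockout label in sham kidney and 33 lower in the difference, while without sham WT 3 and UUO WT 3 it called 0 and 0. The shares of all genes called in these omissions are not given here, and the shares above belong to the fit with all libraries kept.

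In the inhibitor experiment, measured as FPKM in other kidneys, 46 of 49 subunits fell after UUO with UNC569 (34.5% of all 15338 genes lower, 27.5% higher; limma on log2(FPKM + 1)), with a median of -1.72, against -0.07 over all genes. With DMSO 47 fell (25.8% lower, 29.7% higher), with a median of -2.13, against 0.08 over all genes. The groups did not overlap for any called member except Ndufb2 with DMSO. With FPKM scaled to one sum per column, which moved the median of all genes to 0.72 and 0.85, 30 members were lower and 1 higher with UNC569, and 41 lower with DMSO. Ndufb4 and Cox7c were not called in either, nor was Ndufb2 with UNC569. Ndufb4 and Cox7c averaged only 6.14 and 15.75 FPKM in sham DMSO kidney. Relative to CPM per kilobase of transcript in sham WT kidney, their FPKM was 0.117 and 0.0492 times the members' median ratio. In the counts both were called lower under the knockout label. Ndufa1 and Ndufb4 are each listed at 0 FPKM in 4 of the 51 FPKM columns, and Sdhb and Cox5b in 1 each.

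Uqcrfs1 ranged from 115 to 142 FPKM in the 7 UUO UNC569 columns (median 128), against 816, 748 and 735 FPKM in sham UNC569 (log2 -2.58 ± 0.13, adjusted p = 5.72e-11). In DMSO mice it was 151, 139.6, 96.03 and 121 FPKM after UUO, against 660.0, 530.3 and 632 FPKM in sham (log2 -2.26 ± 0.14, adjusted p = 2.01e-09). Every obstructed column lay well below every sham column with either injection. Ndufb9, a membrane-arm subunit of complex I, had the smallest p with DMSO (log2 -2.94 ± 0.16, adjusted p = 4.37e-10) and -2.30 ± 0.14 with UNC569. Cox8a, a small subunit of complex IV with the highest mean FPKM of the members in sham DMSO kidney, had 828.98 to 1284 FPKM in UUO UNC569, against 3664 to 3880 FPKM in sham UNC569, and 559 to 1200 FPKM in UUO DMSO, against 3432 to 3956 FPKM in sham DMSO.

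Between UNC569 and DMSO in obstructed kidney 1 member passed, Ndufb8 of the membrane arm (0.248% of all genes higher, 1.05% lower). It had 80.7 to 122 FPKM with UNC569 (median 97.6, 7 columns), against 48.4, 45.6, 48.4 and 83.5 FPKM with DMSO (log2 0.82 ± 0.17, adjusted p = 0.0333), and the highest DMSO column lay inside the UNC569 range. No member passed with a pseudocount of 0.1, with FPKM scaled to one sum, or without UUO DMSO column 0, 1 or 2 or UUO UNC569 column 1, 3, 4 or 6. The median over the members was 0.23.

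In sham kidney, UNC569 over DMSO called 2 members lower and 1 higher (6.05% of all genes lower, 13.3% higher). Both shares of members are below those of all genes. Ndufa4 had 249, 191 and 175 FPKM with UNC569, against 333, 335 and 397 FPKM with DMSO (log2 -0.80 ± 0.16, adjusted p = 0.00369). Ndufs7 had 78.9, 56.9 and 76.4 FPKM with UNC569, against 86.5, 110.0 and 134 FPKM with DMSO (-0.63 ± 0.21, 0.0431). Sdhc, a membrane anchor of complex II, had 722, 653 and 654 FPKM with UNC569, against 454, 403 and 536 FPKM with DMSO (0.55 ± 0.16, 0.0253). The groups did not overlap for these 3 genes, and Sdhc was the one that was higher with UNC569. All 4 members of complex II had positive fold changes (0.27 to 0.55, median 0.40), while the medians were -0.31 for complex I, -0.17 for complex III and -0.15 for complex IV. Of these 4, Sdhb was low, at 4.42 to 7.24 FPKM with UNC569 and 3.01 to 5.30 FPKM with DMSO, which overlap. Without sham DMSO column 1, sham UNC569 column 1 or sham UNC569 column 2 the count was 1 lower and 0 higher, so Sdhc was not called. Without UUO DMSO column 2 it was 5 (4 lower, 1 higher). By median-of-ratios scaling no member was called higher.

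The fall after UUO was smaller with UNC569 than with DMSO for 11 members by the test of that difference (6.17% of all genes higher, 13.4% lower): Ndufa4, Ndufa8, Ndufa13, Ndufb7, Ndufb8, Ndufb9 and Ndufs7 of complex I, Uqcrh of complex III, and Cox4i1, Cox6b1 and Cox7a2 of complex IV. Ndufa4 had the smallest p (0.98 ± 0.21, adjusted p = 0.00447) and Cox4i1 the largest difference of those named here (1.22 ± 0.40, 0.0428). Ndufa4 ranged from 53.9 to 72.8 FPKM in UUO UNC569 and from 46.99 to 66.4 FPKM in UUO DMSO, which overlap, while its sham levels, given above, do not. The median difference was 0.53 for complex I, 0.13 for complex III and 0.61 for complex IV, and -0.43 for complex II, where no member passed (smallest adjusted p 0.0733, for Sdhc). The count was 3 without sham DMSO column 2, 4 without sham UNC569 column 1 or 2, 5 without UUO DMSO column 2, 6 without UUO DMSO column 3, sham DMSO column 1 or UUO UNC569 column 6, and 7 without UUO UNC569 column 1. Members with a transcript under 800 bases had a median difference of 0.56 (22 members), against -0.002 in those of 1200 bases or more (16 members).

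**Figure D3:**
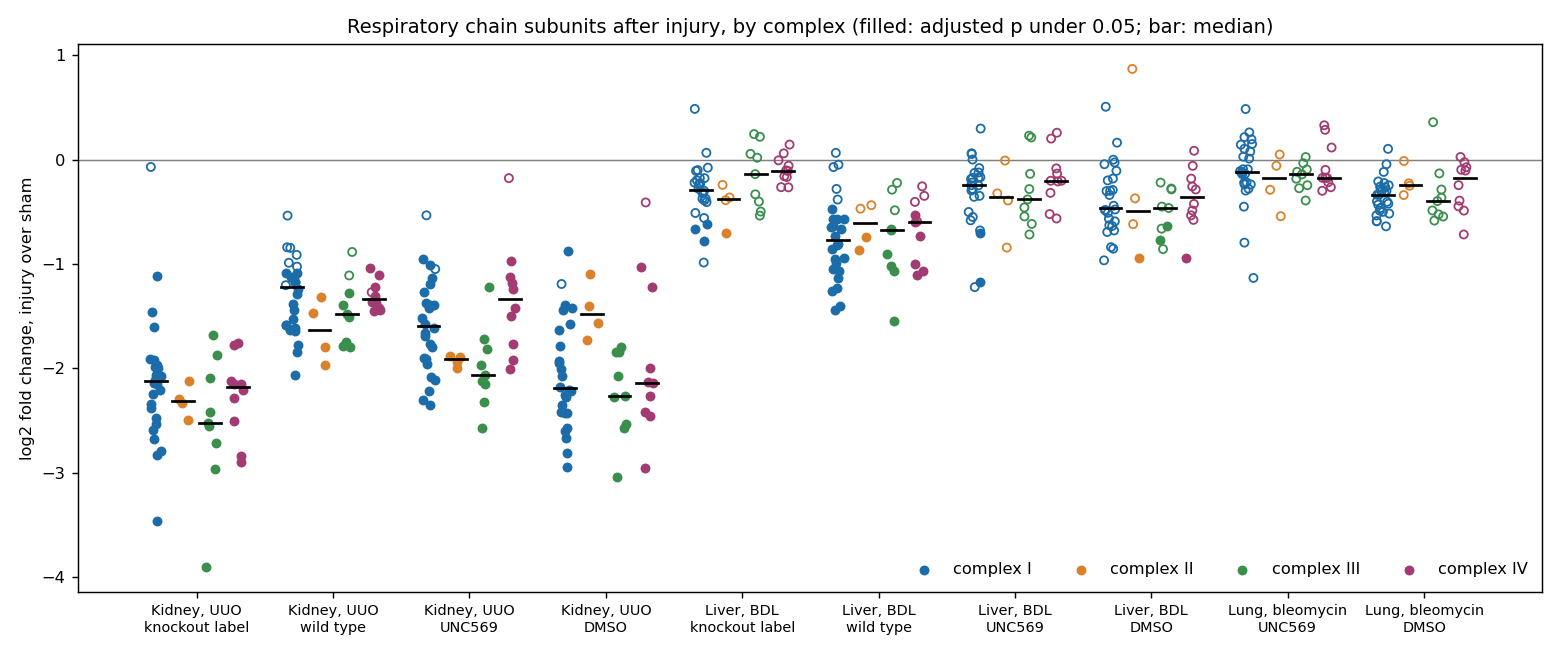
Log2 fold change of each of the 49 subunits, injury over sham, in the 10 injury contrasts. Points are genes grouped by complex, filled where the adjusted p was under 0.05, and bars are medians of a complex. The medians over the 49 are -2.20, -1.37, -1.72 and -2.13 in the kidney contrasts under the knockout label, in wild type, with UNC569 and with DMSO, and lung has no filled point.

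Proximal tubule markers fell with the members in every kidney contrast, 14 of 14 in each of the 4. They summed to 1680 to 9270 CPM in UUO knockout, against 52700 to 61600 CPM in sham knockout libraries, and to 2540 to 4590 CPM in UUO wild type, against 31800 to 67100 CPM in sham wild type. In the inhibitor experiment they summed to 1840 to 3320 FPKM in UUO UNC569, against 44800 to 52000 FPKM in sham UNC569, and to 714 to 4650 FPKM in UUO DMSO, against 62500 to 67900 FPKM in sham DMSO. Macrophage markers were higher in 12 of 12 under either label, at 1780 to 2960 CPM in UUO knockout, against 90.1 to 196 CPM in sham knockout libraries, and at 1310 to 2420 CPM in UUO wild type, against 104 to 191 CPM in sham wild type. The part of these shifts in the members' fall was not tested.

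Other nuclear genes of mitochondrial energy supply fell beside the members after UUO. All 13 genes of the tricarboxylic acid cycle were called lower in each of the 4 kidney contrasts, among them Idh3b, Suclg1 and Fh1, which fell by 2.15 ± 0.20, 2.75 ± 0.25 and 1.99 ± 0.18 on the log2 scale under the knockout label. Of the ATP synthase subunits tested, 14 of 14 fell under the knockout label, 12 of 14 in wild type, 13 of 15 with UNC569 and 14 of 15 with DMSO, and of 12 further chain subunits outside the 49, 12, 7, 10 and 12 fell in the same contrasts. Assembly factors, which build the complexes, fell in 28 of 36 under the knockout label, 20 of 36 in wild type, 23 of 27 with UNC569 and 20 of 27 with DMSO, with Cox15, needed to make haem a, first by p under the knockout label (log2 -1.51 ± 0.13). Cytosolic ribosome genes, a set of abundant and short transcripts, gave 2 of 24 lower and 1 higher under the knockout label and 0 of 24 in either direction in wild type.

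Subunits encoded by the mitochondrial genome fell too. Of 12 tested, 11 were lower under the knockout label (median -2.05) and 12 in wild type (median -3.05), and 12 of 13 were lower with UNC569 and 12 of 13 with DMSO. Their summed level was 35400, 28700, 21000 and 22900 CPM in UUO knockout, against 118000, 127000, 115000 and 99100 CPM in sham knockout libraries. In wild type it was 19000, 27800 and 18500 CPM after UUO, against 208000, 162000 and 109000 CPM in sham libraries, so sham WT 2 and 3, which were low for the nuclear members, were high for the mitochondrial ones.

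Of 14 regulators of mitochondrial gene expression, 8 were lower and 2 higher under the knockout label, 7 and 0 in wild type, 10 and 3 with UNC569, and 6 and 1 with DMSO. Ppargc1a, a coactivator of respiratory chain genes, had 40.4, 44.4, 29.03 and 28.6 CPM in UUO knockout, against 72.3, 95.6, 94.5 and 73.7 CPM in sham knockout libraries (log2 -1.24 ± 0.31, adjusted p = 0.00336). It fell by 1.92 ± 0.36 in wild type, 1.89 ± 0.17 with UNC569 and 0.79 ± 0.18 with DMSO. Between the injections Ppargc1a was higher with UNC569 in sham kidney (1.06 ± 0.20, adjusted p = 0.00194, limma). In obstructed kidney Ppargc1a did not pass between them (-0.04 ± 0.15, adjusted p = 0.904). The orphan receptor Esrra, its partner, fell by 2.86 ± 0.39 under the knockout label, 1.498 ± 0.26 with UNC569 and 1.67 ± 0.29 with DMSO, and had -0.95 ± 0.43 in wild type (adjusted p = 0.0922). Nrf1, whose motif was searched above, had 0.20 ± 0.18 under the knockout label and 0.44 ± 0.21 in wild type, neither past the threshold, and was higher with UNC569 (0.51 ± 0.15, adjusted p = 0.00597). Of the GABP genes, Gabpb1 was higher under the knockout label (1.02 ± 0.20) and with UNC569 (0.75 ± 0.17), and Gabpa was lower with UNC569 (-0.91 ± 0.20). Their other contrasts of UUO against sham kidney did not pass. In sham kidney Gabpa was higher with UNC569 than with DMSO (0.78 ± 0.23, adjusted p = 0.0269, limma). The difference of its UUO responses by UNC569 was -0.89 ± 0.29 (adjusted p = 0.0413). Pprc1 was higher under the knockout label (1.08 ± 0.32), with UNC569 (1.31 ± 0.26) and with DMSO (1.01 ± 0.29). It had 0.98 ± 0.37 in wild type, which did not pass.

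In ligated wild-type liver 35 of 49 subunits fell (12.8% of all 13492 genes lower, 16.3% higher; edgeR), with a median log2 fold change of -0.67, against 0.03 over all genes. By complex 21 of 26, 2 of 4, 6 of 9 and 6 of 10 members were called lower. For 34 members all BDL libraries lay below all sham libraries, and the share of all genes that did so is not given here. Ndufb3, a small membrane-arm subunit, had 18.5, 16.8, 13.1 and 13.03 CPM in BDL wild-type livers, against 39.2, 34.8, 43.4 and 45.6 CPM in sham wild type (log2 -1.41 ± 0.20, adjusted p = 1.98e-04). Uqcr11 had the largest change, with 57.3, 41.2, 19.2 and 26.96 CPM in BDL, against 111, 88.1, 88.6 and 136 CPM in sham livers (-1.55 ± 0.27, 9.58e-04). Sdha had 280.1, 285, 267 and 311 CPM in BDL, against 567, 484, 522 and 518 CPM in sham livers (-0.87 ± 0.18, 0.00237). None of these 3 genes had overlapping groups, whereas Ndufa4, Ndufs4 and Ndufv2 had fold changes of -0.05, 0.07 and -0.07 that did not pass.

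Under the knockout label ligated liver had 4 of 49 subunits lower and 0 higher (11.2% of all genes lower, 14.0% higher), with a median of -0.24. These were Ndufb3 (log2 -0.61 ± 0.19, adjusted p = 0.0319), Ndufb10 (-0.78 ± 0.22, 0.0198), Ndufs1 (-0.66 ± 0.18, 0.0151) and Sdha (-0.70 ± 0.18, 0.0113). Sdha had 346, 333, 201 and 355 CPM in BDL knockout, against 529, 499, 493.4 and 484 CPM in sham knockout livers, with BDL KO 3 lowest and no overlap. The share of members called is below that of all genes called lower. Leaving out BDL KO 1 and BDL KO 4, chosen after seeing the data, the count was 4 (median -0.39), and without the libraries whose labels note a bad fastq file it was 0.

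Between labels in ligated liver 5 subunits were higher under the knockout label (2.67% of all genes higher, 1.72% lower), with a median of 0.31. With library size only in place of TMM, no member was called. The members made up 0.321% to 0.563% of the library total in BDL knockout and 0.413% to 0.524% in BDL wild type. Ndufs6 had 67.5, 49.9, 38.4 and 36.4 CPM in BDL knockout, against 27.6, 28.1, 17.3 and 24.96 CPM in BDL wild-type livers (log2 0.97 ± 0.22, adjusted p = 0.0384). Uqcr11 had 96.1, 95.9, 68.7 and 73.9 CPM in BDL knockout, against 57.3, 41.2, 19.2 and 26.96 CPM in BDL wild-type livers (1.21 ± 0.27, 0.0385). Ndufb8 (0.90 ± 0.19, 0.0384), Ndufa2 (1.30 ± 0.31, 0.0394) and Cox8a (0.90 ± 0.24, 0.0479) were the others, and the groups overlapped for Ndufa2 and Cox8a. In 13 of 16 omissions of a single library no member was called, nor was any without BDL KO 1 and 3 or without BDL KO 1 and 4, while 14 were called without BDL WT 1, 10 without BDL KO 4, 6 without BDL KO 2 and 14 by DESeq2. All 5 called members have transcripts under 800 bases, and the 22 members of that length had a median of 0.42, against 0.22 in the 16 of 1200 bases or more.

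The ligated livers also differed in cell markers by label. Of 12 hepatocyte markers 0 passed between the labels, and they summed to 97900 to 158000 CPM in BDL knockout, against 49900 to 95500 CPM in BDL wild type, with sham livers at 101000 to 124000 CPM. Of 9 cholangiocyte markers 1 was lower under the knockout label, and they summed to 70.7 to 440 CPM in BDL knockout, against 858 to 2310 CPM in BDL wild type. BDL WT 3 had the lowest hepatocyte and highest cholangiocyte sum and also the lowest members' median, -1.06 relative to sham wild type, and BDL KO 1 had the highest hepatocyte sum and the highest members' median of the ligated livers, 0.01. BDL WT 3 and BDL KO 1 also had the highest and lowest TMM factors of the livers, 1.39 and 0.70, by which the members' levels are scaled. By share of the library total the order differed. BDL KO 3 was lowest of the ligated livers at 0.321% and BDL KO 2 highest at 0.563%, with BDL WT 3 at 0.437% and BDL KO 1 at 0.503%. The part of the cell markers and of the scaling in the members' values was not tested. In sham liver 0 members passed between labels in edgeR (0.0% of all genes), 0 had an unadjusted p under 0.05 and DESeq2 called 0. The difference of the responses had 0 past the threshold in edgeR (0.0% of all genes), 13 with an unadjusted p under 0.05, a median of 0.37 and a smallest adjusted p of 0.227, while DESeq2 called 3.

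**Figure D4:**
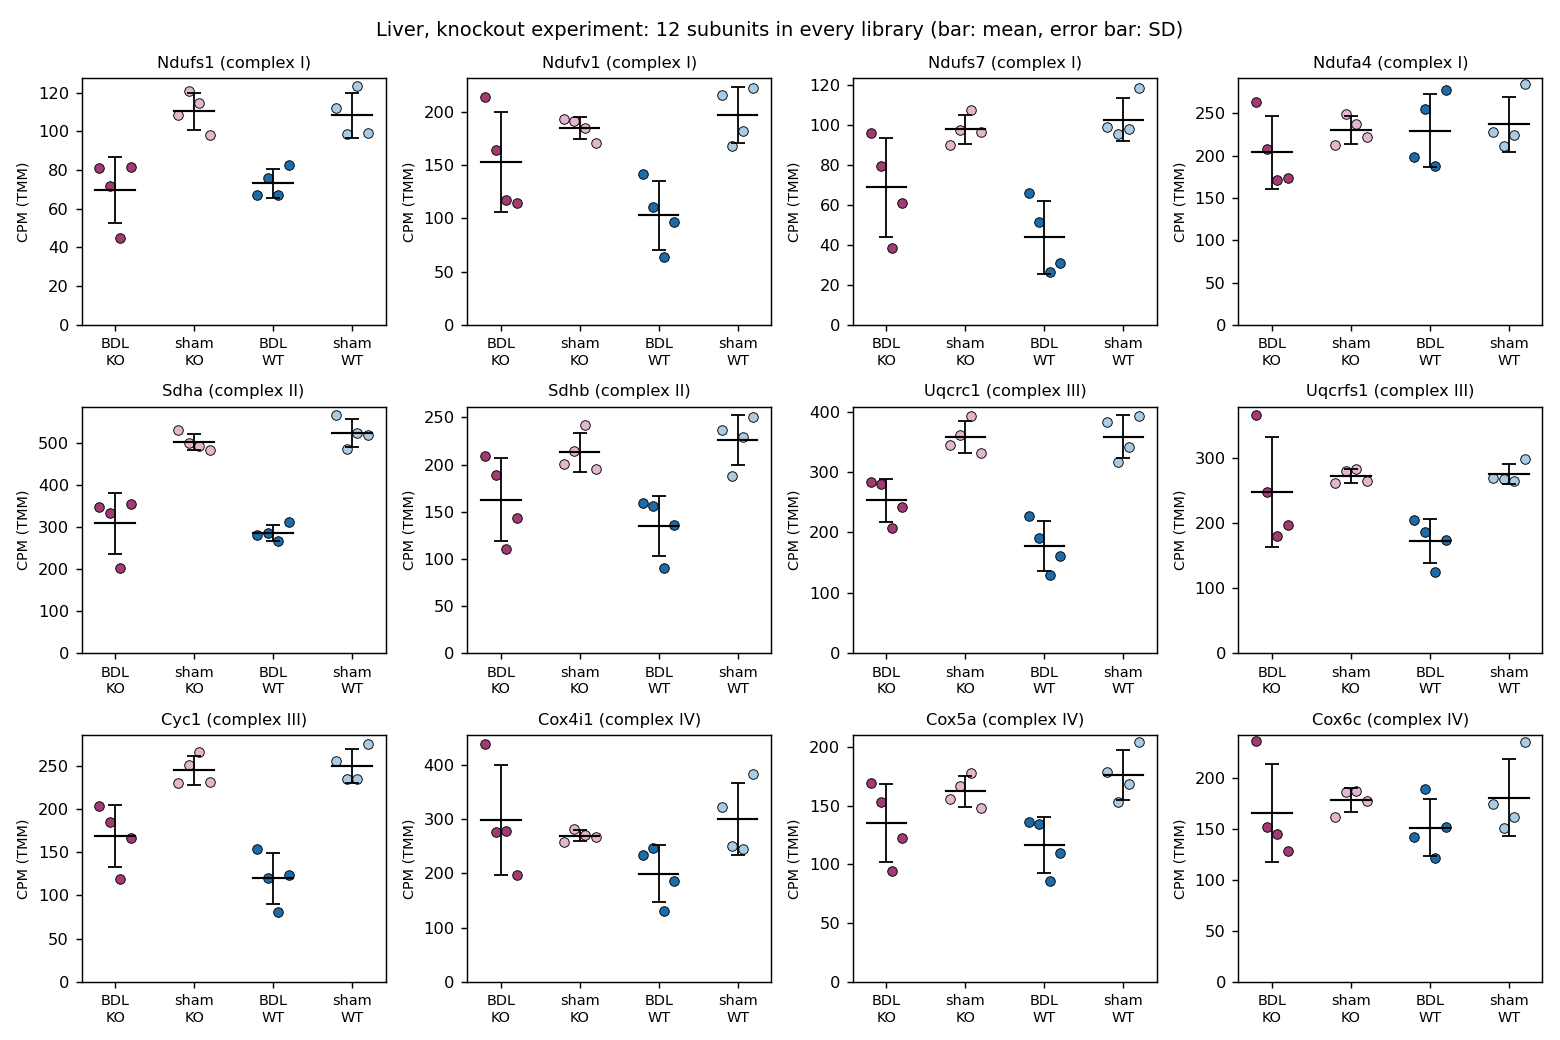
Level of 12 subunits in each liver library of the knockout experiment, in TMM-normalised CPM, with mean and SD (4 libraries per group). For Sdha the BDL KO points run from 201 to 355 CPM and the sham KO points from 484 to 529 CPM, and the BDL WT points from 267 to 311 CPM and the sham WT points from 484 to 567 CPM.

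Among the regulators in liver, Ppargc1a was higher after BDL under the knockout label (log2 1.93 ± 0.57, adjusted p = 0.023), in wild type (1.95 ± 0.57, 0.0183) and with UNC569 (1.74 ± 0.36, 0.0068), and had 0.35 ± 0.33 with DMSO (adjusted p = 0.527). Ppara, a nuclear receptor for fatty acid oxidation genes, fell by 1.12 ± 0.31 under the knockout label, 1.30 ± 0.31 in wild type, 1.45 ± 0.37 with UNC569 and 1.27 ± 0.35 with DMSO. Of the cytosolic ribosome genes 17 of 24 rose under the knockout label and 2 of 24 in wild type. Of the mitochondrially encoded subunits 1 of 12 fell under the knockout label and 0 in wild type.

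With UNC569, ligated liver had 2 subunits lower (4.9% of all 12986 genes lower, 3.66% higher; limma), Ndufb3 (log2 -1.17 ± 0.31, adjusted p = 0.0249) and Ndufb10 (-0.70 ± 0.18, 0.0249), with a median of -0.25. Ndufb3 had 32, 19.8, 19.97 and 28.8 FPKM in BDL UNC569, against 61.4, 44.998 and 65.7 FPKM in sham UNC569, without overlap. With DMSO 4 fell (7.92% lower, 5.47% higher), Cox5a (-0.95 ± 0.21, 0.00778), Sdha (-0.94 ± 0.27, 0.0275), Uqcrfs1 (-0.64 ± 0.19, 0.0366) and Uqcrb (-0.77 ± 0.24, 0.0405), with a median of -0.45. Sdha ranged from 98.4 to 202 FPKM in BDL DMSO (median 129, 6 columns), against 164, 258 and 385 FPKM in sham DMSO, and the groups overlapped. Both counts are near the share of all genes called and changed with single columns: with UNC569 no member passed without BDL UNC569 column 1 or sham UNC569 column 0 or 2, and 4 passed without BDL DMSO column 2. With DMSO no member passed without sham DMSO column 2, 1 without BDL DMSO column 4 or 5 or sham DMSO column 1, 2 without BDL DMSO column 1, 7 without sham DMSO column 0 and 9 without BDL DMSO column 2.

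UNC569 against DMSO called 0 members in ligated liver (0.123% of all genes higher, 0.193% lower) and 0 in sham liver (0.0%), and the difference of the responses called 0 (0.0%). Unadjusted p-values under 0.05 in limma numbered 7, 3 and 2 in these tests, and the medians were 0.24, 0.15 and 0.13. Cholangiocyte markers summed to 91.8 to 122 FPKM in BDL UNC569, against 132 to 821 FPKM in BDL DMSO, and their part was not tested.

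In lung no subunit passed in any comparison by limma. Bleomycin over sham had a median of -0.12 with UNC569 (0.00628% of all 15935 genes lower, 0.0188% higher; 1 member with an unadjusted p under 0.05) and of -0.34 with DMSO (0.0439% lower, 0.0251% higher; 11 members). UNC569 over DMSO had medians of 0.13 after bleomycin and -0.12 in sham lung, with 2 and 2 members at an unadjusted p under 0.05, and the difference of the responses a median of 0.22 with 4 (0.0% of all genes called in each). The smallest p was that of Ndufs7 after bleomycin with DMSO (log2 -0.64 ± 0.18, adjusted p = 0.1).

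The sham lungs held high and low libraries. Sdha ranged from 55.9 to 76.7 FPKM in bleomycin UNC569 (median 69.9), against 75.9, 155 and 79.7 FPKM in sham UNC569, and from 61.1 to 87.5 FPKM in bleomycin DMSO (median 73.5), against 112, 105 and 70.1 FPKM in sham DMSO. The 3 sham columns with Sdha above 100 FPKM were those whose 14 cardiac muscle markers summed to 3360 FPKM with UNC569 and 3230 and 3270 FPKM with DMSO, where the other 3 sham columns had 81.1 to 129 FPKM. In bleomycin lungs the sum was 1460 and 1270 FPKM in 2 UNC569 columns, 650 FPKM in 1 DMSO column, and 226 FPKM or less in the rest. Without the 6 columns with a sum of 500 FPKM or more, a choice made after seeing the data that leaves 1 sham DMSO column assumed to vary like the other groups, the median after bleomycin was -0.10 with UNC569 and 0.01 with DMSO, and no member passed in any lung comparison. Without sham DMSO column 2, the low one, 12 members passed as lower after bleomycin with DMSO (median -0.49). That omission leaves as sham DMSO only the columns with cardiac muscle sums of 3230 and 3270 FPKM. The share of all genes called in it is not given here, and the part of cardiac muscle was not tested.

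**Figure D5:**
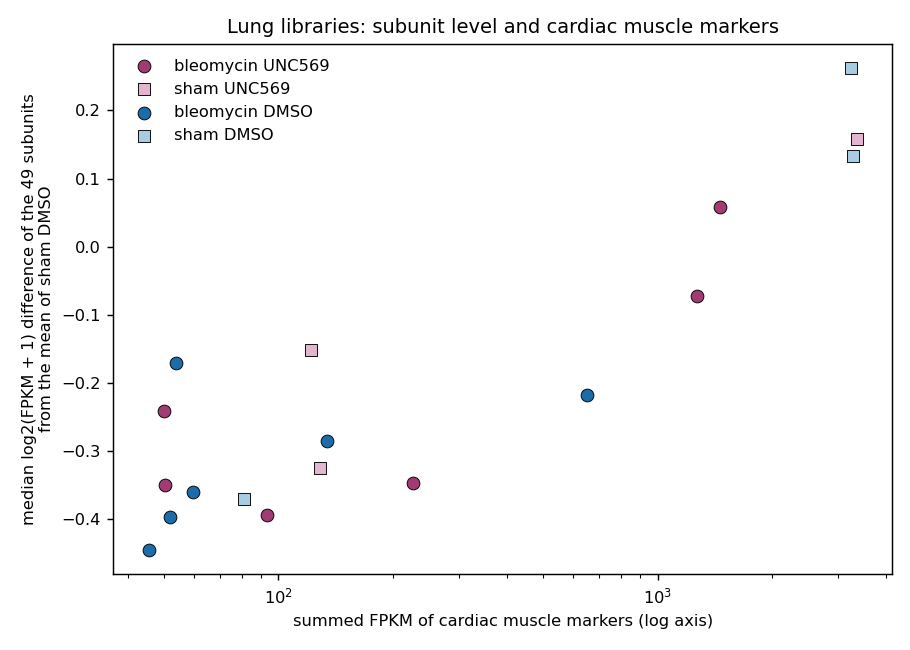
Median log2(FPKM + 1) difference of the 49 subunits from the sham DMSO mean in each lung column, against the summed FPKM of 14 cardiac muscle markers on a log axis, by group. The 3 sham columns with the highest sums, 3360, 3270 and 3230 FPKM, stand at the right.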

How the data were processed

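Knockout libraries of kidney and liver were deposited as raw read counts per gene, which the authors made with STAR after Trim Galore and FastQC, per the submitters' processing notes, which name no versions. Inhibitor libraries of kidney, liver and lung were deposited as FPKM, and the tool that made the FPKM is not given in the sources used here. Total RNA was made into TruSeq libraries and read on an Illumina HiSeq, per the labels' protocols. The notes name builds mm10 and hg38. Counts ignore strand, and rows that name no gene were kept out of library sizes. Unmapped reads were 2.10% to 58.5% of a library, multimapping reads 4.04% to 12.8%, reads outside genes 2.58% to 9.71% and ambiguous reads 1.69% to 8.02%.

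Counts were tested with edgeR 4.0.16 in R 4.3.3 (quasi-likelihood, filterByExpr, TMM, 1 term per group) and FPKM with limma 3.58.1 on log2(FPKM + 1) for genes at 1 FPKM or more in 3 libraries, which understates changes of low genes. P-values were Benjamini-Hochberg adjusted over all genes tested, with a threshold of 0.05, and errors on log2 values are SE. For edgeR this SE was worked back from the test, as the size of the log2 fold change over the square root of the quasi-likelihood F statistic. DESeq2 1.42.0, other scalings, filters, pseudocounts and omissions of libraries were alternatives. Counts at an unadjusted p, counts of members without overlap and counts in the alternatives carry no share of all genes and describe the members only. Tests were tested on simulated data first. FPKM columns name the group but no sample: 7 columns stand for 8 UUO UNC569 samples and 4 for 6 BDL UNC569 samples, and columns are numbered as in the tables.

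The members and the other gene lists were chosen with earlier results of these data known, so no count over them is independent support. Named genes are 12 fixed members, the members with the largest and smallest change of each complex, the 3 with the smallest p, those called against the majority, and up to 3 genes by p from each other list. Further regulators and complex IV variants were added. Printed promoter stretches belong to fixed members and hold a motif outside annotated exons.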

Additional observations from a re-analysis of the deposited data

Results flagged for a closer look

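In 12 groups of 4 to 7 libraries, 13 quantities were looked at, the levels of 12 members and the share of the 49 in the library, which share libraries. Of these 156 sets of values, 11 had 1 library far from the others by Dixon's 95% critical value, and chance alone gives about 1 in 20. In the knockout experiment Ndufa4 was 531.3 CPM in kidney sham KO 4, where the other sham KO libraries had 396.1 to 408.0 CPM. Sdha was 289.8 CPM in kidney UUO KO 1, where the other UUO KO libraries had 181.0 to 189.4 CPM, and this library also had the highest proximal tubule marker sum of its group, whose part was not tested. In liver, Sdha was 201.3 CPM in BDL KO 3, where the other BDL KO libraries had 332.7 to 354.9 CPM, and BDL KO 3 had the highest macrophage marker sum of the ligated livers, 4840 CPM, whose part was not tested. Liver sham WT 4 stood above its group for Ndufs7, at 118.6 CPM beside 95.24 to 98.95 CPM, and for Uqcrfs1, at 297.5 CPM beside 263.6 to 268.7 CPM.

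In the inhibitor experiment the 49 members made up 1.141% of the column total in kidney UUO UNC569 column 4, beside 0.9043% to 0.978% in the other columns of that group. Cox6c was 6.047 FPKM in kidney UUO DMSO column 3, beside 3.731 to 4.022 FPKM. Ndufa4 was 64.86 FPKM in liver BDL UNC569 column 2, beside 97.13 to 100.3 FPKM, and Cox5a was 13.38 FPKM in liver BDL DMSO column 5, beside 7.874 to 9.62 FPKM. In lung, Cox4i1 was 83.93 FPKM in bleomycin DMSO column 1, beside 51.21 to 60.17 FPKM, and Cox6c was 8.859 FPKM in bleomycin UNC569 column 3, beside 2.601 to 4.396 FPKM.

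The response to UUO differed between UNC569 and DMSO for 11 members by the test of the difference, all with a smaller fall with UNC569, where 6.17% of all genes were called higher and 13.4% lower. Leaving out 1 column at a time, the count was 3 to 13, the lowest without sham DMSO column 2.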

How the results depend on the processing

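Counts are members called of 49. With library size only, 23 were called for UUO in wild type, 9 for BDL under the knockout label, 23 for BDL in wild type and 0 between labels in BDL liver. DESeq2 called 1 in the difference of UUO responses by label, 9 for BDL under the knockout label, 14 between labels in BDL liver and 3 in the difference of BDL responses by label. Without libraries with a noted bad fastq file, the counts were 21 for UUO in wild type, 7 between labels in sham kidney, 9 in the difference by label in kidney, 0 for BDL under the knockout label and 0 between labels in BDL liver. That omission leaves 1 wild-type library, replicate 2, in each kidney group, assumed to vary like the other groups. The count between labels in BDL liver was also 0 without BDL KO 1 and 3, and without BDL KO 1 and 4, an omission chosen after seeing the data. Scaling FPKM to one sum gave 0 between UNC569 and DMSO in UUO kidney, 1 for BDL with UNC569 and 2 for BDL with DMSO (1 lower, 1 higher), and turned Ndufs7 after UUO with UNC569 to 0.0433 on the log2 scale. With log2(FPKM + 0.1) the count between UNC569 and DMSO in UUO kidney was 0. Median-of-ratios scaling gave 7 lower and 0 higher between UNC569 and DMSO in sham kidney and 19 in the difference of UUO responses by UNC569, where no filter on low FPKM gave 7. Of the gene-level alternatives for the 12 fixed members, 5285 kept direction and call, 35 gained a call, 55 lost one and 1 turned. The causes were not tested.

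Leaving out 1 library at a time gave 48 to 48 for UUO under the knockout label, 24 to 47 in wild type (47 without UUO WT 3), 0 to 26 between labels in sham kidney and 0 to 33 in the difference by label, the highest of both without sham WT 4. It gave 3 to 7 for BDL under the knockout label, 23 to 37 for BDL in wild type (23 without sham WT 4), 0 to 14 between labels in BDL liver and 0 to 1 in the difference there. In the inhibitor experiment it gave 45 to 47 for UUO with UNC569, 46 to 48 with DMSO, 0 to 2 between them in UUO kidney, 1 to 5 in sham kidney and 3 to 13 in the difference. For BDL it gave 0 to 4 with UNC569 and 0 to 9 with DMSO, for bleomycin with DMSO 0 to 12, and for sham lung and the lung difference by UNC569 0 to 1 each. The other comparisons stayed at 0.

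Pairs of samples with the same replicate number had median correlations of deviations of -0.03 in kidney and -0.004 in liver. Pairs with different numbers had -0.007 and 0.006. A correlation over 0.1 was found in 4 of 19 same-number pairs in kidney and 5 of 24 in liver, against 13 of 54 and 11 of 72 different-number pairs. With a replicate block the counts were 48 for UUO under the knockout label, 30 in wild type, 4 for BDL under the knockout label, 34 in wild type, 4 between labels in BDL liver and 0 elsewhere in the knockout experiment. No paired analysis was possible for the inhibitor experiment because its columns carry no replicate numbers. Library size only moved the median of all genes after UUO to 0.77 under the knockout label and 0.68 in wild type. The depth behind the FPKM values is unknown, and small groups, 3 sham columns each, limit the inhibitor results.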

Other observations

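The variants of complex IV subunits that replace common ones in particular tissues were measured beside the 49. Cox7a1 and Cox6a2, the forms of heart and skeletal muscle, had log2 fold changes after UUO of -3.09 ± 0.63 (adjusted p = 7.94e-04) and -5.70 ± 0.99 (2.33e-04) under the knockout label, and of -1.82 ± 0.69 (0.0499) and -2.63 ± 0.91 (0.0331) in wild type, by edgeR. Of the 5 variants 4 were tested, and the other 2 did not pass: Cox4i2 had 0.60 ± 0.99 (adjusted p = 0.623) and 1.08 ± 1.2 (0.503), and Cox6b2 0.37 ± 0.28 (0.269) and 0.79 ± 0.32 (0.065), under the knockout label and in wild type. Cox6a2 averaged 0.0267 ± 0.0533 CPM after UUO under the knockout label (SD, n = 4), with 3 of the 4 libraries at 0, against 1.59 ± 0.77 CPM in sham knockout-label kidneys (SD, n = 4), so its fitted fold there depends on the prior count. Mitochondrial import genes fell in 10 of 12 under the knockout label and 7 of 12 in wild type, led by the chaperones Hspd1 (-2.22 ± 0.20 and -2.22 ± 0.24) and Hspa9 (-1.76 ± 0.17 and -1.65 ± 0.19).

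Across the members, mean FPKM in sham DMSO libraries and mean CPM per kilobase of transcript in sham WT libraries of the same tissue had a Spearman correlation of 0.316 in kidney and 0.402 in liver, over 49 genes that share libraries, given as a description. In each tissue 5 members had a ratio of FPKM to CPM per kilobase under 0.1 times the median ratio. These were Ndufa1, Sdhb, Cox5a, Cox6c and Cox7c in kidney, and Ndufa1, Ndufb4, Sdhb, Cox6c and Cox7c in liver.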
